A study of Saccharomyces cerevisiae with 46 samples.

Results

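The strand positions described here were the strongest single cut positions of meiotic double-strand breaks (DSBs) in Saccharomyces cerevisiae SK1 cells. A member was a position on the Watson or the Crick strand, each strand taken separately, with a mean of at least 10 HpM (hits scaled to a library total of 1000000) over the 4 libraries from rad50S and rad50S hop1-loop2 cells. By this rule 15030 strand positions were members, 7622 on the Watson and 7408 on the Crick strand, out of 2275898 strand positions with a hit in any library, or 0.660%. The members were therefore chosen by their level, so levels, and the changes of level and share of members named below, are given as descriptions without a p-value. CC-seq libraries came from 3 genotypes at 6 h in sporulation medium, each with 2 replicates. rad50S cells carried rad50S::URA3 with ho::hisG, leu2::hisG, ura3 and HIS4::LEU2-(NBam;ori), all homozygous, and were heterozygous at his3 and trp1. The second group was rad50S hop1-loop2, in which alanine replaced basic residues in loop 2 of the chromatin-binding region of the axis protein Hop1, and its other markers are not given in the sources used here. The third was rad50S hop1-loop2 pch2. The study lists a strain of that genotype with ho::LYS2, lys2, ura3, heterozygous leu2::hisG and pch2Δ::kanMX and without the HIS4::LEU2 construct. That strain differs from rad50S cells in markers as well, but whether these libraries came from it is not stated in the sources used here. By their sample titles all 3 groups carried rad50S. Homozygosity for it is listed for rad50S cells and for the strain with pch2Δ::kanMX, and not for rad50S hop1-loop2 cells. Below, the mutants are called hop1-loop2 and hop1-loop2 pch2. The groups rest on the sample titles, because the genotype entry of these 6 samples names another strain.

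Spo11 cleaves DNA in a topoisomerase-like reaction and stays covalently bound to the 5′ end of each cut strand. The rad50S allele blocks the nucleolytic removal of Spo11, so breaks accumulate with the protein attached, and CC-seq maps the bound 5′ ends at single-base resolution. DSBs in yeast cluster in hotspots, mostly in nucleosome-depleted regions, where Spo11 cuts at many positions with unequal preference. Hop1 is a HORMA-domain protein of the meiotic chromosome axis that promotes DSB formation, and Pch2 is the ATPase that removes Hop1 from chromosomes. Gene annotations are not given for the positions below, because the coordinates are those of the SK1 assembly to which the study aligned its reads and no annotation of that assembly was used here.

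The libraries held 7730583 and 7577582 hits in rad50S, 6277735 and 7985420 in hop1-loop2, and 3614810 and 1026669 in hop1-loop2 pch2 cells. The last library stood apart. Hotspots, called on the mean of all 6 libraries, took 63.9% of its hits against 85.0 to 89.4% in the other 5, and its level outside hotspots was 0.0162 HpM per bp and strand against 0.00476 to 0.00671 HpM. In that library a member had a median of 9 reads and 2773 members had none, against 43 members with none in its replicate and 0 to 4 in the other libraries. A count of 0 there allowed a level of up to 2.92 HpM (3 counts), covering counting error only, since reads carried no molecular identifiers. HpM is a share of a library, so a change in total DSB formation between genotypes is not visible in these values.

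Members took 34.1 to 38.0% of the hits of the rad50S and hop1-loop2 libraries, and 33.8% and 23.8% of those of hop1-loop2 pch2. Relative to hotspot hits the range narrowed to between 37.3 and 42.5% over all 6 libraries. The mean level over the 4 libraries ran up to 486 HpM with a median of 16.5 HpM, 249 members reached 100 HpM and 37 reached 200 HpM. Many lay close to the threshold: 3273 were below 12 HpM, and the members nearest to it stood at 10.0003 HpM against 9.9997 HpM for the first position left out. At least 10 HpM in each of the 4 libraries was found for 6640 members (44.2%), and 3551 (23.6%) also reached it in both hop1-loop2 pch2 libraries. Choosing the positions with any one of the 4 libraries left out kept 91.0 to 91.8% of them.

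The 5 strongest members belonged to 3 breaks. On chromosome XVI, Watson position 463652 had 305 and 229.5 HpM in rad50S, 797 and 613 HpM in hop1-loop2, and 647 and 345 HpM in hop1-loop2 pch2. The other end of that break, Crick position 463653, had 208 and 177 HpM in rad50S, 682 and 517 HpM in hop1-loop2, and 1315 and 840 HpM in hop1-loop2 pch2. Both ends were lowest in the rad50S libraries with no overlap with hop1-loop2, and their hotspot (463436 to 463942, 56 members) had a total of 2137 and 1529 HpM against 5463 and 5003 HpM. The level was higher in hop1-loop2 by 1.40 on the log2 scale at the Watson end and by 1.62 at the Crick end. The share of the hotspot differed by -0.13 at the Watson end and 0.09 at the Crick end, less than the total of the hotspot did (1.51).

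On chromosome XV the break at Watson 199149 and Crick 199150 lay in a hotspot of 35 members. The Watson end took 20.3% and 18.0% of the hotspot in rad50S, 23.4% and 20.2% in hop1-loop2, and 21.7% and 16.9% in hop1-loop2 pch2. The Crick end took 17.9% and 20.7%, 21.8% and 18.6%, and 28.4% and 29.8% in the same order. The first 2 genotypes overlapped at both ends, whereas both hop1-loop2 pch2 libraries were the highest at the Crick end. Crick position 399650 on chromosome VII, the third strongest, took 9.85% and 11.3% of a hotspot of 88 members in rad50S, 9.60% and 8.17% in hop1-loop2, and 9.89% and 5.53% in hop1-loop2 pch2.

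To find which Watson and Crick hits belong to the same break, the products of Watson HpM at position x and Crick HpM at position x + k were summed over the genome for each offset k from -20 to 20 bp, with each value limited to 10 HpM. The highest sum was at an offset of 1 bp in all 6 libraries, 4.86 to 5.63 times the baseline, which was the median over offsets of at least 10 bp. A Watson hit at x thus went with a Crick hit at x + 1, which is the geometry of a cut whose strand ends are staggered. The offset stayed at 1 bp with no limit on the values, with every position counted once, and with all libraries thinned to the lowest total.

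**Figure D1:**
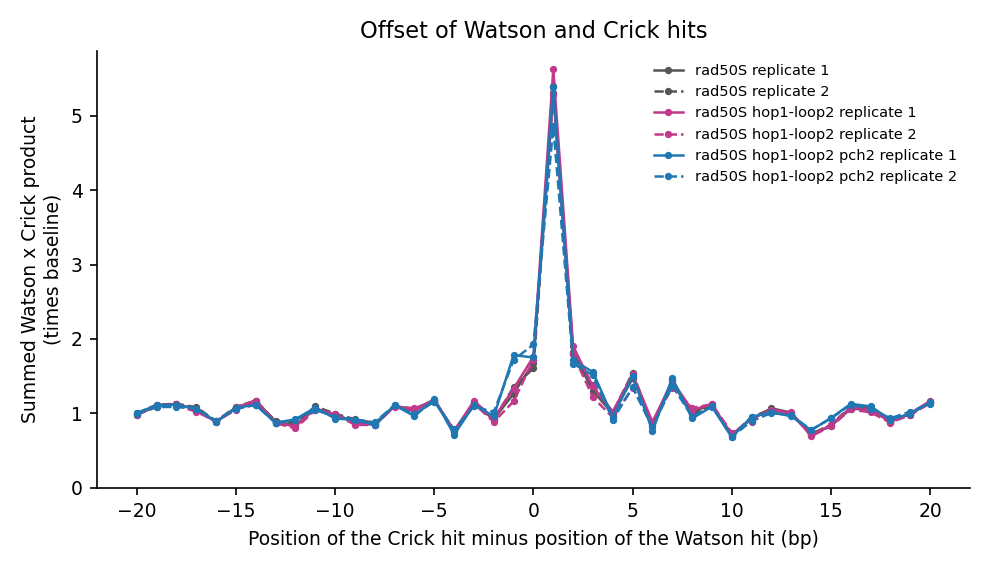
Summed product of Watson and Crick HpM against the position of the Crick hit minus that of the Watson hit in bp, as times the baseline of each library, for 6 libraries (solid lines replicate 1, dashed lines replicate 2). All lines peak at 1 bp, and at -1 bp both hop1-loop2 pch2 libraries lie above the other 4.

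The flanks of this peak differed between libraries. At an offset of 0 bp the sum was 1.61 to 1.93 times baseline and at 2 bp 1.67 to 1.90 times. At -1 bp it was 23.5% and 25.5% of the peak in rad50S, 23.7% and 22.0% in hop1-loop2, and 33.1% and 35.4% in hop1-loop2 pch2. At 3 bp, which lies at the same distance on the other side of the peak, it was 24.1% and 26.1%, 24.2% and 23.1%, and 28.9% and 31.1% in the same order. The hop1-loop2 pch2 libraries thus stood above the other 4 at -1 and 3 bp, without overlap. With all libraries thinned to the same total of hits they had 33.3% and 35.4% at -1 bp, against 22.2 to 25.8% in the other 4. Nearer the peak they overlapped the other 4. They had 32.5% and 39.7% of the peak at 0 bp against 30.3 to 32.6%. At 2 bp they had 31.9% and 34.4% against 33.8 to 33.9%. These offsets were compared by their values in the 6 libraries and were not tested.

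Most members had the other end of the break beside them. The partner position at the modal offset had at least 25% of the member's level for 77.3% of members, close to the 77.5% of the 72722 positions of 2 to 10 HpM, and at least 10% of it for 91.9%. The median partner reached 60.1% of the member (quartiles 27.6% and 103%). For 7910 members (52.6%) the partner was itself a member, giving 3955 breaks with both ends among the strongest positions. Of all opposite-strand positions within 5 bp of a member, the one at the modal offset was the strongest for 68.8% of members, the next being the offset of 2 bp with 5.56%. By library, the share with a partner of at least 25% was 76.2% and 72.0% in rad50S, 77.5% and 79.2% in hop1-loop2, and 72.2% and 65.7% in hop1-loop2 pch2, so both hop1-loop2 libraries were the highest, while rad50S and hop1-loop2 pch2 overlapped.

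Other members were one-sided to different degrees. No member on the other strand lay within 5 bp of 5609 members (37.3%), the partner was below 10% of the member at 1210 members in hotspots, and 10 had no partner hit in the 4 libraries. The strongest member with no opposite member within 5 bp was Watson position 659677 on chromosome II, with 99.3 and 113 HpM in rad50S, 122 and 126 HpM in hop1-loop2, and 33.5 and 36.0 HpM in hop1-loop2 pch2. Its partner stayed at 7.93 to 9.77% of the member in the first 4 libraries and was 28.1% and 10.8% of it in hop1-loop2 pch2, and the nearest Crick member was 53 bp away. Watson position 402745 on chromosome X was as one-sided, with a partner of 3.12 to 7.73% of its level in the 4 libraries and 1.66% and 0% in hop1-loop2 pch2. At Crick position 1421054 on chromosome IV the level was 149 and 175 HpM in rad50S against 47.3 and 53.7 HpM in hop1-loop2, and the partner was 3.96 to 10.8% of it in those 4 libraries. The last position's level was thus lower in hop1-loop2 without overlap, by a log2 change of -1.66, while it took 24.5% and 25.3% of its hotspot in rad50S and 23.0% and 25.0% in hop1-loop2.

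Over all breaks the strands were in balance, and single breaks often were not. Watson hits made up 49.9 to 50.5% of all hits in every library. Among the 7236 breaks whose ends together reached 20 HpM, 50.1% of hits were Watson and the median log2 ratio of Watson to Crick was 0.01, but the median size of that ratio was 0.86. Both ends were within 2-fold of each other at 55.6% of these breaks, 18.9% differed by more than 4-fold, and 295 (4.08%) differed by more than 10-fold, 161 toward Watson and 134 toward Crick.

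The favoured side was mostly the same in every library. Of 3212 breaks with more than a 2-fold imbalance in the mean of the 4 libraries, 2386 (74.3%) leaned to the same side in all 6 libraries. The 4 libraries chose these breaks, so their agreement with that mean is not independent of the choice. Both hop1-loop2 pch2 libraries, which had no part in it, leaned to that side at 74.7% of them. Over the 7236 breaks, the log2 ratios correlated with r = 0.96 between rad50S replicates, 0.94 between hop1-loop2 replicates and 0.88 to 0.93 between these genotypes. Between the hop1-loop2 pch2 replicates r was 0.66, and against the other libraries it was 0.74 to 0.82 for replicate 1 and 0.55 to 0.59 for replicate 2. These are descriptions over breaks within one set of libraries and depend on depth: with libraries thinned to the same total the rad50S replicates correlated with r = 0.86. Imbalance also varied by library: at the same total of hits, which does not equalise the hits inside hotspots, the share of breaks within 2-fold was 53.1% and 47.6% in rad50S, 53.7% and 55.6% in hop1-loop2, and 45.8% and 37.6% in hop1-loop2 pch2, so both libraries of that mutant were the lowest. The hop1-loop2 pch2 libraries were also the shallowest, and the last had the highest level outside hotspots; the part of these in the imbalance was not tested.

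Few breaks passed the main test for a changed strand ratio in hop1-loop2. Of the 11075 breaks with a member, 259 (2.34%) passed limma with Benjamini-Hochberg adjustment over all 42111 breaks of at least 4 HpM, of which 2.51% passed, and they split into 132 toward Watson and 127 toward Crick, beside 1.26% of all breaks in each direction. The share among breaks with a member was thus near that of all breaks. Ratios of 90.8% of the breaks with a member stayed within 2-fold, with a median size of change of 0.37 on the log2 scale. The count depended on the method: edgeR's quasi-likelihood test of strand by genotype on recovered reads called 45 (0.406%) beside 0.126% of all breaks, and 35 were called by both. limma called no such break with 0.1 HpM added or when breaks of 1 HpM entered. With 5 HpM added it called 1763, so the counts cannot tell how many breaks changed. The count also depended on single libraries, with 166 calls without rad50S replicate 1, 29 without rad50S replicate 2, 76 without hop1-loop2 replicate 1 and 47 without hop1-loop2 replicate 2. In the chromosome XVI break named above, the Crick end was 68.2% and 77.2% of the Watson end in rad50S, 85.6% and 84.4% in hop1-loop2, and 203% and 244% in hop1-loop2 pch2. The favoured end of the strongest break was therefore the other one in both hop1-loop2 pch2 libraries, a log2 change of the Watson to Crick ratio of -1.61 ± 0.50 (SE) against rad50S that did not pass limma (adjusted p = 0.154). In the comparisons of the ratio with hop1-loop2 pch2, limma called none of the 42111 breaks. The absence of calls did not hold with either hop1-loop2 pch2 library left out. Such fits leave a lone library in that group, so nothing is read from their counts.

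Strong positions were close together. The median distance from a member to the nearest member of the same strand was 10 bp, 50.9% had one within 10 bp and 89.7% within 100 bp, where 50117 same-strand pairs were counted. The most frequent distance was 1 bp, with 1363 pairs. Beyond it the counts alternated at short range: 950 pairs at 4 bp, 895 at 6 bp, 685 at 8 bp, 637 at 11 bp, 775 at 15 bp and 789 at 19 bp stood out against 421 at 5 bp, 360 at 9 bp, 376 at 13 bp and 507 at 17 bp. The pattern was alike on both strands, where the counts relative to their neighbourhood correlated over distances of 4 to 60 bp with r = 0.94, and in the weaker positions of 2 to 10 HpM, with r = 0.94 against the members. Each r is over 57 distances that share the same hotspots and base composition. The strands are also not independent, since many Watson and Crick pairs are the ends of the same breaks. At 4 bp, 191 pairs of breaks with both ends members stood beside 487 Watson and 463 Crick pairs. Likeness of the strands was therefore in part built in.

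**Figure D2:**
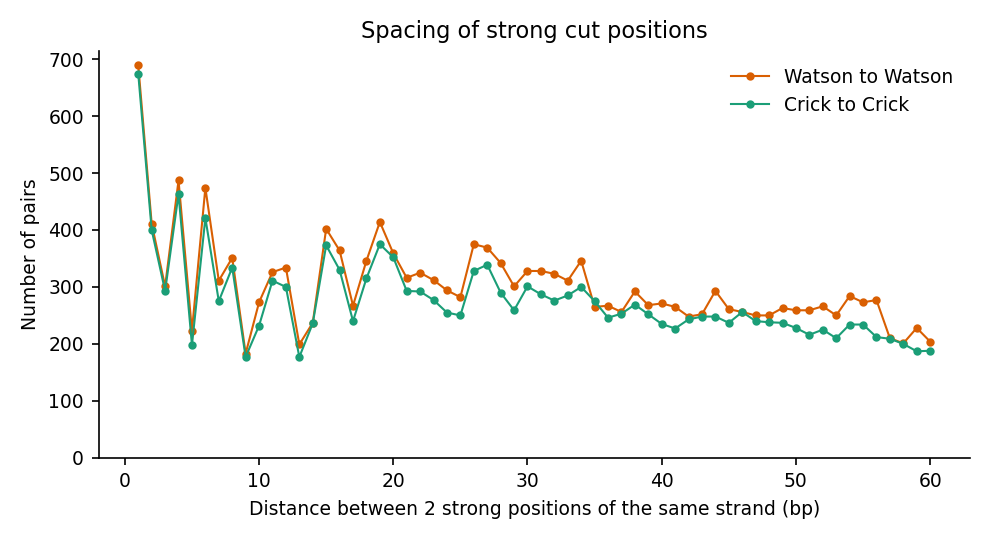
Number of pairs of strong positions on the same strand against their distance in bp, from 1 to 60 bp, for Watson pairs and Crick pairs. Both lines peak at 1, 4, 6, 15 and 19 bp and dip at 5, 9, 13 and 17 bp.

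Summed over 5 distances each, pairs at whole helical turns were about as frequent as pairs between turns. Those at 10, 20, 21, 30 and 31 bp were 0.982 times as frequent as those at 5, 15, 16, 25 and 26 bp. The ratio was 0.956 for positions of 2 to 10 HpM, 1.02 for those of at least 20 HpM and 1.07 for the 3955 breaks. The distances between turns held both a dip (421 pairs at 5 bp) and a peak (775 at 15 bp). Counts were not corrected for their fall with distance, so the ratio cannot decide whether spacing follows the helix. In single libraries the products of limited HpM values at these distances gave 0.972 and 0.979 in rad50S, 0.972 and 0.965 in hop1-loop2, and 0.987 and 0.984 in hop1-loop2 pch2. The profile over 4 to 60 bp was nearly the same in all 6 libraries, with r of 0.96 to 1.00 between any 2 of them.

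Almost all members, 15027, lay in the 3524 hotspots, and 1965 hotspots (55.8%) held at least 1. Those with a member had a median length of 262 bp against 132 bp for those without, and 862 held 5 or more. Members of the Watson and the Crick strand lay alike within their hotspots: both had their median 50.3% of the way along the hotspot, and 73.8% of Watson and 74.2% of Crick members lay in its middle 50%. The centre of the Crick hits lay 0.912 to 3.59 bp to the right of that of the Watson hits in the median hotspot of the 6 libraries, with single hotspots spread widely to both sides. The 3 members outside hotspots were Crick 492680 on chromosome II (10.0 to 16.1 HpM in the 4 libraries), Watson 928527 on chromosome IV (7.51 to 15.3 HpM) and Crick 422344 on chromosome XII. The last was higher in rad50S without overlap, with 15.1 and 20.7 HpM in rad50S, 2.71 and 1.75 HpM in hop1-loop2 and 7.19 and 9.74 HpM in hop1-loop2 pch2, with no partner hit in any library.

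Among hotspots with at least 3 members, the strongest position took a median of 9.08% of the hotspot in rad50S, 8.99% in hop1-loop2 and 11.1% in hop1-loop2 pch2. The most members, 115, were found in 2 hotspots. One was on chromosome IV (823288 to 824582), where the total was 6975 and 5540 HpM in rad50S, 6512 and 6564 HpM in hop1-loop2, and 5025 and 3899 HpM in hop1-loop2 pch2. The other was on chromosome VII (602412 to 603703), with 4049 and 3110, 6907 and 7210, and 7096 and 6149 HpM. In the first the groups overlapped between rad50S and hop1-loop2, and in the second the mutants were higher without overlap.

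In the chromosome VII hotspot Crick position 603332 was the strongest in each of the 3 genotypes by the mean of the replicates. It took 4.86% and 5.73% of the hotspot in rad50S, 4.65% and 3.78% in hop1-loop2, and 9.05% and 10.1% in hop1-loop2 pch2. Over its 115 members the levels correlated with r = 0.97 between rad50S replicates, 0.96 between hop1-loop2 replicates and 0.82 to 0.95 between the genotypes. By the same measure the leading position differed in the chromosome IV hotspot: Crick 824139 led in rad50S with 4.77% and 5.05%, Crick 824036 in hop1-loop2 with 5.12% and 4.85%, and Watson 824278 in hop1-loop2 pch2 with 5.92% and 5.62%. The first 2 were near ties, since Crick 824036 took 4.40% and 4.66% in rad50S, whereas Watson 824278 took 2.23 to 2.80% in the other 4 libraries.

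**Figure D3:**
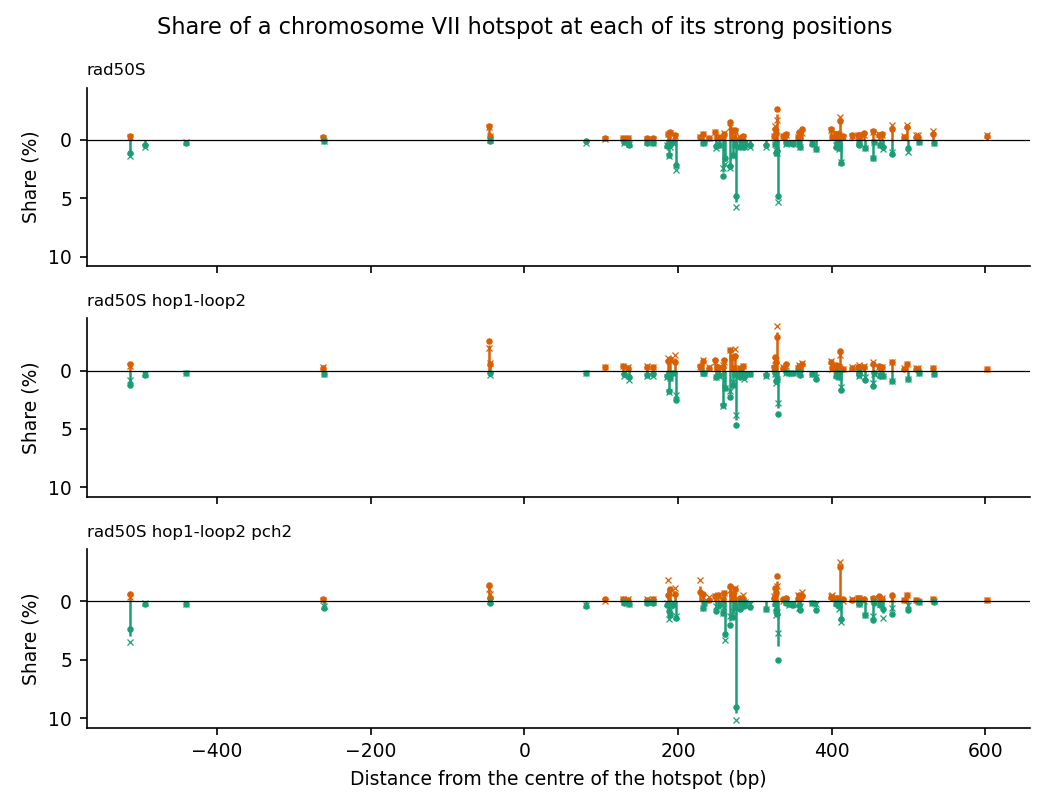
Share in % of a chromosome VII hotspot at each of its 115 strong positions against the distance from the hotspot's centre in bp, Watson upward and Crick downward, by genotype. Lines are the mean of 2 replicates, circles replicate 1 and crosses replicate 2, and the tallest Crick line is the same position in all 3 panels.

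Whether the preferred positions stay the same when a hotspot changes was asked by comparing each position's level with its share of the hotspot, both tested over all 81667 strand positions in hotspots with a mean of at least 2 HpM over the 6 libraries. All 15027 members in hotspots passed this filter. The rule used the same level values, and 2925 members were below 10 HpM in both rad50S libraries and 2718 in both hop1-loop2 libraries, so they were members only through the other genotype. Counts of level calls are therefore given with nothing read from them. For level, limma on log2(HpM + 1) called 9818 members (65.3%, Benjamini-Hochberg adjusted p below 0.05) between hop1-loop2 and rad50S, 5338 upward and 4480 downward, beside 54.5% of all positions tested (31.1% upward and 23.5% downward). The median log2 change over all positions was 0.20, so directions are relative to that shift, and with TMM scaling in edgeR the split turned to 4568 upward and 5082 downward. The level change of a member went with that of its hotspot (r = 0.96 over the 15027 members, whose levels are part of those totals). The SD over members was 1.45 for the log2 level change and 0.42 for the log2 share change.

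**Figure D4:**
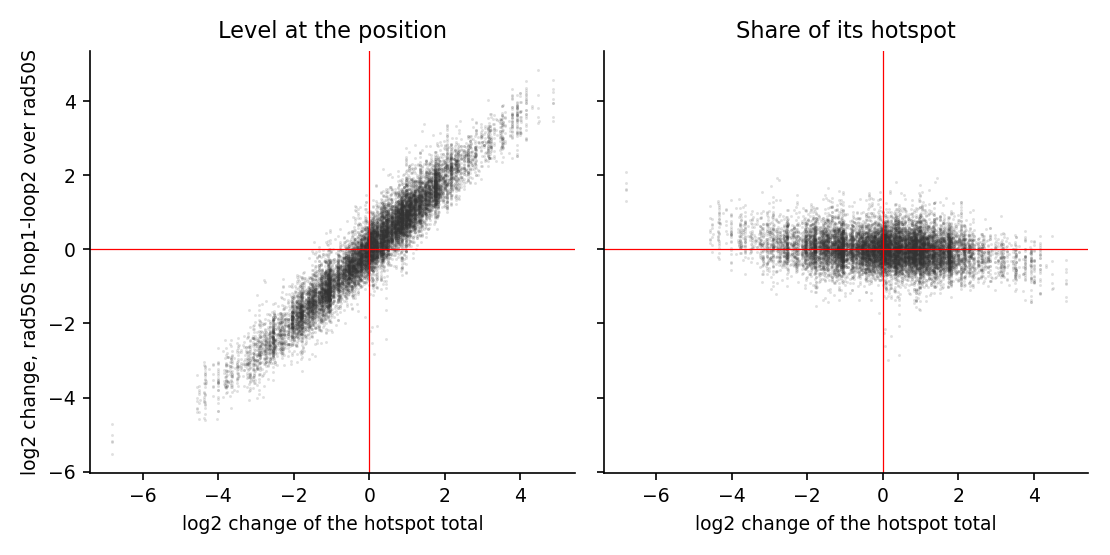
Each point is one of 15027 members, with the log2 change of its hotspot's total from rad50S to hop1-loop2 on the x axis and the log2 change of its level (left) or of its share of the hotspot (right) on the y axis. Levels follow the hotspot with r = 0.96, while shares stay in a band around 0 with an SD of 0.42.

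Shares differed somewhat more between these genotypes than between replicates. The SD of the log2 share difference was 0.35 between rad50S replicates and 0.37 between hop1-loop2 replicates, and 0.41 to 0.57 for the 4 pairs across genotypes. At 99.3% and 99.2% of members the replicates agreed within 2-fold in share, and across the genotypes 92.5 to 97.6% did. A share change of 1 or more on the log2 scale was found at 354 members (2.36%), where a level change of that size was found at 7572 (50.4%).

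Shares are not fixed by the rule, but those of members that entered through 1 genotype are not independent of it. The test of shares called 775 members (5.16%), 440 higher and 335 lower in hop1-loop2, while 14.0% of all positions tested were called (5.42% higher and 8.56% lower). The groups did not overlap at 50.3% of members and at 54.8% of all positions. The added 1 HpM by construction pulls the share of a weak position against the change of its hotspot, and 94.7% of calls at positions that were not members ran that way, with 67.2% of the calls at members. In edgeR on recovered reads, the offset was the hotspot total plus 1 read, and no HpM were added to the position. It called 685 members (4.56%), 397 higher and the rest lower, beside 2.49% of all positions (1.35% higher and 1.14% lower). Of these calls at members, 45.0% ran against the hotspot. A total of 531 members were called by both, none with opposite sign, which is 68.5% of the limma and 77.5% of the edgeR calls. In limma no member was called with 0.1 HpM added, after thinning to the same total or in a fit of all 6 libraries. It called 5184 members with 5 HpM added and 1615 without a filter. Leaving out rad50S replicate 2 left 148 limma calls and leaving out hop1-loop2 replicate 2 left 481.

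Members were also split by the change of their hotspot's total, and the share of calls in each class was not compared by a test. In the 583 hotspots whose total was at least 2-fold lower in hop1-loop2, the median member level changed by -1.66 on the log2 scale and the median share by 0.08, and of 3838 members limma called the share of 6.77% (206 higher and 54 lower) and edgeR of 4.56% (86 higher and 89 lower). In the 942 hotspots within 2-fold the medians were 0.15 and -0.01, and limma called 4.34% and edgeR 4.76% of 7262 members. In the 440 hotspots at least 2-fold higher they were 1.59 and -0.10, and limma called 5.09% and edgeR 4.18% of 3927 members. The signs of the first and last share medians turned in edgeR, to -0.06 and 0.04, so no direction can be read from them. The limma calls fell in 422 hotspots, 279 of which had a single call, and 67 had calls in both directions. Where both ends of a break were members, their share changes between genotype means correlated with r = 0.32 over 3955 breaks. The differences between replicates gave 0.15 for rad50S and 0.12 for hop1-loop2, but these rest on single libraries, which are noisier than means. Of 31 breaks with both ends called by limma, 30 moved the same way at both ends. Both ends share the hotspot total and the HpM added to it, and both were chosen by level. These shared parts can move both ends the same way, and their part was not tested, so nothing is read from the joint movement.

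The largest decreases of share among called members were at 3 one-sided positions, which were members through their rad50S values. Watson position 660064 on chromosome II took 2.53% and 4.83% of its hotspot in rad50S, 0.201% and 0.496% in hop1-loop2, and 0.309% and 0.737% in hop1-loop2 pch2. The hotspot's total was 619 and 694 HpM in rad50S and 713 and 732 HpM in hop1-loop2, so its loss stood within a hotspot of similar total. The log2 change of its share was -2.98 (SE 0.33), its partner had 4.13% and 4.72% of its level in rad50S, and the nearest Crick member was 334 bp away. Watson 186642 on chromosome VIII had 17.3 and 17.7 HpM in rad50S, 1.59 and 3.63 HpM in hop1-loop2, and 1.66 and 0 HpM in hop1-loop2 pch2. Crick 823657 on chromosome IV, inside the hotspot of 115 members described above, had 21.7 and 31.4, 3.03 and 4.51, and 2.21 and 0 HpM. The log2 changes of their shares were -2.86 and -2.60, and the nearest members on the other strand were 167 and 115 bp away. At all 3 positions the rad50S libraries were the high ones and both mutants were low, and how far the strains differ elsewhere in their genomes was not tested.

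Of the 3 largest increases among called members, 2 were also called by edgeR. Crick 359718 on chromosome X had 7.11 and 1.85 HpM in rad50S, 46.7 and 51.1 HpM in hop1-loop2, and 31.8 and 31.2 HpM in hop1-loop2 pch2. It was a member through its hop1-loop2 values. Its share was 1.06% and 0.353% in rad50S against 2.89% and 3.09% in hop1-loop2 (log2 change 1.91 ± 0.32 SE), and it was 2.18% and 2.97% in hop1-loop2 pch2. At Crick 696369 on chromosome XIV the hotspot had 340.2 and 486 HpM in rad50S against 56.4 and 61.5 HpM in hop1-loop2, and the share was 4.11% and 3.01% against 14.7% and 11.4% (log2 change 1.94 ± 0.26 SE), with 27.0% and 36.4% in hop1-loop2 pch2. Its Wilson 95% interval in the last library was 25.8 to 48.4%, on 24 of 66 reads. The log2 change of its level was -0.83, smaller in size than the -2.79 of its hotspot.

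The third increase, Crick 87575 on chromosome III, was called by limma with the added 1 HpM and not by edgeR. It lay in the hotspot with the largest decrease among those of at least 5 members (87503 to 87654), with 2701 and 1749 reads in rad50S, 14 and 8 in hop1-loop2, and 5 and 0 in hop1-loop2 pch2, and 349 and 231 HpM against 2.23 and 1.00 HpM in the first 2 genotypes. The position had 306 and 184 reads in rad50S and 3 and 0 in hop1-loop2, and the log2 change of its share was 2.09 in limma and 0.18 in edgeR. All 5 members of this hotspot were on the Crick strand, the nearest Watson member was 2122 bp away, and the partner of Crick 87575 had no hit in any library. Its strongest position in rad50S, Crick 87590, took 15.2% and 17.8% of it, and the reads in the mutants were too few to rank its positions. HIS4::LEU2 is listed for the rad50S strain, but its place in these coordinates was not determined, and whether hop1-loop2 cells also had it is not given in the sources used here; its part in this hotspot was not tested.

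The hotspot with the largest increase among those of at least 5 members, on chromosome IV (464905 to 465149), had 22.0 and 20.1 HpM in rad50S, 590 and 693 HpM in hop1-loop2, and 1003 and 680 HpM in hop1-loop2 pch2. Watson position 465019 was the strongest in both mutants and the second in rad50S, where it had 7.06% and 3.95% of the hotspot, against 7.93% and 7.57% in hop1-loop2 and 8.57% and 11.9% in hop1-loop2 pch2. Crick 465047 was first in rad50S with 2.35% and 9.21%, values that rest on 170 and 152 reads in the whole hotspot. Its members took 31.8% and 37.5% of it in rad50S, 39.3% and 35.9% in hop1-loop2, and 43.8% and 40.8% in hop1-loop2 pch2. limma called the share of 5 of its 8 members and edgeR of none.

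The hop1-loop2 pch2 libraries had no part in the rule, so members chosen for a high level elsewhere start with a lower share there, and the median share difference of members of -0.33 on the log2 scale against each other genotype is given as a description. limma over the 6 libraries called no position against rad50S or against hop1-loop2, among members or others. The absence of calls did not hold with either hop1-loop2 pch2 library left out. Such fits leave a lone library in that group, so nothing is read from their counts. edgeR on recovered reads called 1496 members (9.96%) against rad50S, 640 higher and 856 lower, beside 4.32% of all positions (2.32% higher and 2.00% lower), and 1393 (9.27%) against hop1-loop2, 571 higher and 822 lower, beside 3.84% (2.04% higher and 1.80% lower). Both comparisons share the same 2 mutant libraries, and since the other side of each comparison chose the members, nothing is read from the share of members called or from its lean toward lower values. The SD of the log2 share difference was 1.28 between its replicates, and 60.7% of members were within 2-fold in them. Against the other 4 libraries the SD was 0.75 to 0.88 for replicate 1 and 1.39 to 1.44 for replicate 2, in which depth and the level outside hotspots differ as given above; their part was not tested.

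Last, the strongest of all strand positions was found in each library for the 1211 hotspots with at least 3 members, with every library thinned to 1026669 hits. Replicates had the same strongest position in 58.4% of hotspots for rad50S, 56.7% for hop1-loop2 and 44.3% for hop1-loop2 pch2. Libraries of rad50S and hop1-loop2 shared it in 52.3% (48.1 to 54.3% over 4 pairs of libraries, SD 2.81), slightly below the replicates of either. With hop1-loop2 pch2 the agreement was 33.8% for rad50S (28.2 to 41.4% over 4 pairs) and 32.9% for hop1-loop2 (26.8 to 41.0%), below that of the replicates of any genotype in all 8 pairs. The pairs share libraries, and each group has a single pair of replicates, so no test is given. Hotspots were called on all 6 libraries, but the choice of those with at least 3 members used rad50S and hop1-loop2 levels only. Thinning also does not equalise the hits inside hotspots, which were 63.9% of hits in hop1-loop2 pch2 replicate 2 against 85.0 to 89.4% elsewhere. The part of the choice and of these hits in the lower agreement was not tested.

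**Figure D5:**
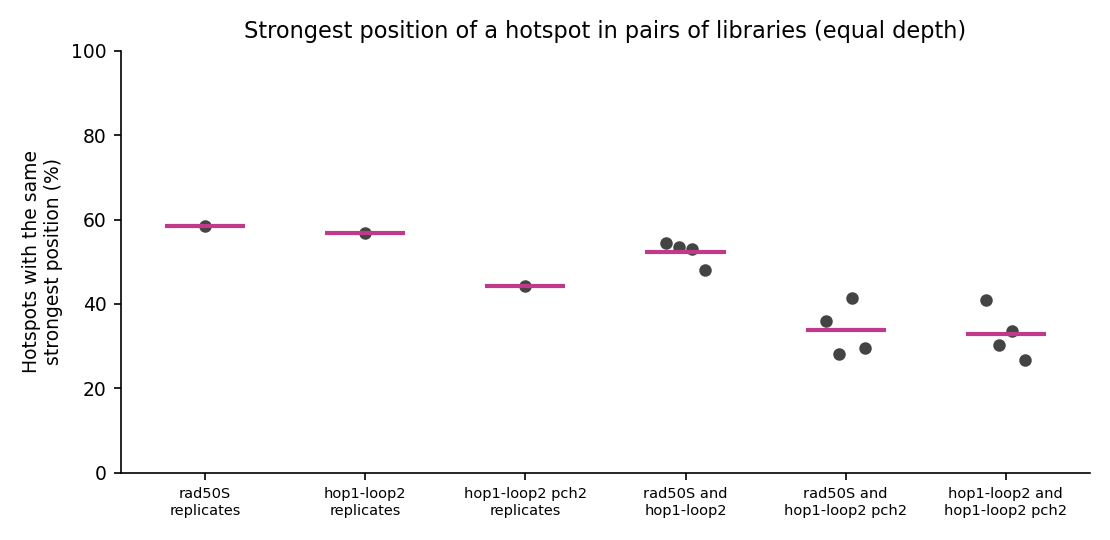
Share in % of the 1211 hotspots with at least 3 members whose strongest position is the same in a pair of libraries, by kind of pair, with libraries thinned to 1026669 hits and 1 point per pair of libraries. Replicate pairs sit at 44.3 to 58.4%, rad50S and hop1-loop2 pairs at 48.1 to 54.3%, and pairs with hop1-loop2 pch2 at 26.8 to 41.4%. Hotspots were called on all 6 libraries, and those with at least 3 members were chosen by rad50S and hop1-loop2 levels.

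Levels were also correlated over the members of each hotspot. The median r over hotspots was 0.77 between rad50S replicates, 0.76 between hop1-loop2 replicates and 0.61 between hop1-loop2 pch2 replicates, and it was 0.62 to 0.72 for rad50S with hop1-loop2. With hop1-loop2 pch2 the mean over 4 pairs of libraries was 0.48 for rad50S and 0.51 for hop1-loop2, under the same limits of choice and of hits inside hotspots. Split by the change of the hotspot total, rad50S and hop1-loop2 had the same strongest position in 47.5% of the 353 hotspots at least 2-fold lower in hop1-loop2, where replicates did so in 60.9% (rad50S) and 49.9% (hop1-loop2). In the 569 hotspots within 2-fold the value was 55.1% against 58.9% and 56.6%, and in the 289 at least 2-fold higher it was 52.6% against 54.3% and 65.4%. In each class the value across genotypes was below both replicate values, and the lower of these was that of the genotype with the lower total, except in the hotspots within 2-fold.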

How the data were processed

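Spo11-bound strand ends from SK1 cells were mapped by CC-seq, 2 libraries for each of 3 genotypes. The study's methods speak of independent biological replicates, and its list of libraries names those of rad50S and rad50S hop1-loop2 only, so whether the pch2 pair came from separate cultures is not given in the sources used here, and their p-values measure only the spread between those libraries. The authors aligned reads to the SK1 assembly with Bowtie2 through TermMapper and deposited Watson and Crick hits per position as HpM, an RPM unit (reads scaled to a library total of 1000000); the aligner version and any removal of duplicates for these libraries are not given in the sources used here. All deposited values (100% at a tolerance of 0.01) were whole multiples of 1 read, and these recovered reads went into edgeR. The spike-in ChIP files of the series were not used.

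A hotspot was a stretch of at least 25 bp above 0.2 HpM per bp after averaging all 6 libraries and smoothing (Hann, 201 bp), with stretches less than 200 bp apart joined. Shares (log2 of position + 1 HpM over hotspot + 1 HpM), levels and strand ratios were tested with limma 3.58.1 (trend) under R 4.3.3, with Benjamini-Hochberg adjustment over all positions with a mean of at least 2 HpM, or breaks of at least 4 HpM, over the 6 libraries. The 4 libraries of rad50S and rad50S hop1-loop2 entered their comparison and all 6 those with pch2. Alternatives were edgeR 4.0.16 (quasi-likelihood, on reads), other pseudocounts, filters and hotspot thresholds, thinning, a replicate block, leaving out each library, and, added after the data were seen, subtraction of the level outside hotspots, thinned offsets and edgeR for strand ratios. Other steps used Python 3.11.15, numpy 2.4.6 and pandas 2.3.3. The limma test of shares between rad50S hop1-loop2 and rad50S was checked on simulated data with changes at single members only.

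The members and lists were chosen with earlier results of these data known. Positions named in the text were the 5 strongest members, the 3 largest decreases and 3 largest increases of share among called members with non-overlapping groups in hotspots with at least 3 members, the 2 hotspots with the most members, the hotspots with the largest decrease and increase among those with at least 5 members, the 3 strongest members with no member of the other strand within 5 bp, and the members outside hotspots; the partner of a named position is given beside it. No sequence is shown, since the coordinates are of the SK1 assembly and no genome of that build was used here.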

Additional observations from a re-analysis of the deposited data

How the results depend on the processing

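The modal offset was 1 bp in all 3 alternatives, and the level result kept its count within 1.5 times in 11 of 11 (7895 to 9325 with a library left out). Members numbered 34834 at 5 HpM, 5569 at 20 HpM and 6640 when each of the 4 libraries had to reach 10 HpM (14968 to 15213 with a library left out). Partners reached at least 10% of the member for 91.9% and at least 50% for 57.2%, and at least 25% for 76.1 to 78.2% with a library left out. The ratio of pairs at whole turns was 1.02 at 20 HpM and 0.972 to 0.984 with a library left out. Own depth gave the same strongest position for 62.6% of hotspots between rad50S and rad50S hop1-loop2. Members with a changed share in rad50S hop1-loop2 numbered 0 with 0.1 HpM added, 5184 with 5 HpM, 1615 without a filter, 0 after thinning, 0 in a fit of all 6 libraries and 148 to 669 with a library left out. For rad50S hop1-loop2 pch2 against rad50S they were 4333 with 5 HpM added, 3422 without a filter, 1496 in edgeR and 0 to 8545 with a library left out, and against rad50S hop1-loop2 713, 1393 (edgeR) and 0 to 8325. Breaks with a changed strand ratio in rad50S hop1-loop2 were 0 with 0.1 HpM, 1763 with 5 HpM, 0 when breaks of 1 HpM entered, 45 in edgeR and 29 to 166 with a library left out; against rad50S hop1-loop2 pch2 they were 894 with 5 HpM (rad50S) and 0 to 6410 (rad50S) or 0 to 6198 (rad50S hop1-loop2) with a library left out. In the comparisons with pch2, the upper ends of the ranges with a library left out come from fits with a lone pch2 library. Nothing is read from those upper ends. The cause of the differences between settings was not tested, apart from the pull of the added HpM described above.

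With the replicate block, 616 shares, 197 strand ratios and 9962 levels were called in rad50S hop1-loop2, and 0 in each comparison with pch2. Replicate numbers carried no pairing: deviations of same-numbered libraries correlated at -0.18, -0.07 and 0.11. A member had a median of 9 reads in replicate 2 of rad50S hop1-loop2 pch2. HpM hides differences in total break number, and 2 libraries a genotype leave calls dependent on single libraries.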

Other observations

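Members were not spread evenly over the 16 chromosomes. Chromosomes XII, III and I held 67.6, 72.2 and 81.3 members per 100 kb, and chromosomes IV, XVI and II held 150.9, 149.4 and 147.1. Chromosome VI, at 299 kb shorter than III at 341 kb, held 115.6, so low density was not shared by all short chromosomes. The rule used the mean over rad50S and rad50S hop1-loop2. The paper reports lower relative DSB activity on short chromosomes in hop1-loop2 cells, so these densities are not those of rad50S alone. Chromosome III held few members, yet they took 35.5% and 31.6% of its hits in the rad50S libraries, whereas on chromosome XII they took 26.2% and 26.5%. On chromosome III the values were 35.3% and 32.3% in rad50S hop1-loop2 and 26.3% and 18.1% in rad50S hop1-loop2 pch2, and the last library was the lowest on each of the 16 chromosomes, at 14.3 to 28.2%.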
